A study of Homo sapiens with 12 samples.

Results

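The collagen and laminin chains measured in RCC4 cells were taken as every gene whose probe sets carried exactly 1 symbol of the collagen form (COL, a number, A, a number) or a symbol opening with LAMA, LAMB or LAMC and a digit. This gave 42 genes of 11963 genes tested, 32 collagen chains and 10 laminin chains, read by 93 probe sets. RCC4 is an established clear cell renal carcinoma line. The 12 arrays were 3 biological replicates each, per the labels, of cells in which MESH1 was silenced with 1 siRNA (siMESH1), ATF4 with an siRNA pool (siATF4) or both genes together (siMESH1+siATF4), and of cells given a non-targeting siRNA (siNT), all with 40 pmol of siRNA and lipid reagent in serum-containing medium for 72 h. MESH1 is a cytosolic NADPH phosphatase, ATF4 is the transcription factor through which the integrated stress response acts on genes, and the design asked how far the response to loss of MESH1 passes through ATF4. How the 40 pmol was shared between both siRNAs is not given in the sources used here, and all siMESH1 cultures rest on 1 siRNA sequence.

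Collagen chains wind into trimers that follow separate fates. Fibrillar collagens (types I, II, III, V and XI) pack into the fibrils of stroma, whereas collagen IV joins into the sheet-like network of basement membranes, the matrix on which epithelia such as renal tubules rest. Laminins, each a cross-shaped trimer of an α, a β and a γ chain, form the second network of that sheet and bind cells through integrins. The other collagens tie these structures together or line them, and several of the laminin and collagen IV chains are mutated in hereditary kidney or skin disease. By class the members were 9 fibrillar chains, 16 basement membrane chains (6 of collagen IV and 10 laminins) and 17 other collagens.

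Every value below is a log2 signal from which the siNT mean of that probe set had been taken away, averaged over the probe sets of a gene, so the table holds differences and no levels. Whether a chain, or a marker of renal epithelium, is expressed at all could therefore not be checked. A gene was called when its adjusted p (limma, Benjamini-Hochberg over all 11963 genes) was under 0.05 and its difference reached 0.5 on the log2 scale. ATF4 fell 4.95-fold in siATF4 and 5.01-fold in siMESH1+siATF4 and had a value of -0.03 in siMESH1, while HDDC3, which encodes MESH1, had 0 probe sets and its silencing was not checked. The spread between replicates of the members was a median SD of 0.0854, against 0.0882 over all genes. Of the markers of fibroblasts (6 measured), endothelium (4 measured) and leukocytes (3 measured), 0 were called in any comparison. In bulk RNA, fewer cells of a type and less RNA per cell cannot be told apart.

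Across the 7 comparisons, 8 of 42 members were called at least once (19.0%, against 17.3% of all genes). They were 4 of 10 laminins (LAMB3, LAMA5, LAMB2 and LAMC1), 1 of 6 collagen IV chains (COL4A2), 1 of 9 fibrillar chains (COL5A1) and 2 of 17 other collagens (COL16A1 and COL18A1). The other 34 were called in none. The stretch of reference genome just before the start site of the chains that moved furthest, or together, shows what they do and do not share. It was taken from RefSeq on GRCh38.p14, where 31 of the 42 members matched. COL4A1 and COL4A2, whose products wind into the same collagen IV trimer, are transcribed away from each other on chromosome 13 and have 126 bases between their start sites (chr13:110307158-110307283, plus strand, reading toward COL4A2). Below it stand the 250 bases before LAMB3 (chr1:209652426-209652675, minus strand), LAMA5 (chr20:62367313-62367562, minus strand) and COL16A1 (chr1:31704018-31704267, minus strand), with motif matches in capitals.
COL4A1/COL4A2: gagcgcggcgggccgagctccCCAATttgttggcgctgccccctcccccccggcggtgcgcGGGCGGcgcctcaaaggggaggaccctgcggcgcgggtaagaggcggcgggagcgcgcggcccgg
LAMB3: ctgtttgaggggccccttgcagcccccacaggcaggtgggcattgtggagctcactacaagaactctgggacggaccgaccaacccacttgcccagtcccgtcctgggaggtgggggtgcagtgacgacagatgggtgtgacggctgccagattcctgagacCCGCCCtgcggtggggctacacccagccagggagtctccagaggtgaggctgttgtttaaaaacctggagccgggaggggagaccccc
LAMA5: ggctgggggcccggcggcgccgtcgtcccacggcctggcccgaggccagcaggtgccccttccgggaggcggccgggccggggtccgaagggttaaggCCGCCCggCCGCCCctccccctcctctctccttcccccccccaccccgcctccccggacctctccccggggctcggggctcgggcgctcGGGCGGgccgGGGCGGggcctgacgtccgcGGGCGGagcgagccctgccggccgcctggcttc
COL16A1: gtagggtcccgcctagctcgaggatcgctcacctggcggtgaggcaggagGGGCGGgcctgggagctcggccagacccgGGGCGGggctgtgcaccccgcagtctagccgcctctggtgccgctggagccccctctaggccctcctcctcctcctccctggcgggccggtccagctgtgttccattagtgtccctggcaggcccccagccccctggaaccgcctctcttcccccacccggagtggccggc

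The motifs searched on both strands, none of which contains another, were the GC box GGGCGG, the CCAAT box CCAAT, the TATA box TATAAA, the AP-1 element TGANTCA, the cyclic AMP element TGACGTCA and TGATGNAA, the core of the composite element at which ATF4 pairs with C/EBP factors. The shared COL4A1/COL4A2 stretch held 1 CCAAT box and 1 GC box, LAMA5 held 5 GC boxes, COL16A1 held 2 and the printed LAMB3 stretch held 1. GC boxes stood in 26 of 44 member windows (59.1%), against 42.6% of all windows of 250 bases. The ATF4 composite core stood in 1 of the 44 (2.27%, against 3.14% of all windows), before a start site of COL21A1, and the cyclic AMP element in 0 (against 1.65%). An AP-1 element stood in 2 (4.55%, against 6.57%), 1 of them before the innermost of the 3 LAMB3 start sites and the other before a COL10A1 start site. CCAAT and TATA boxes stood in 27.3% and 13.6% of member windows, against 32.0% and 10.7% of all windows. A match is a description of the letters and not a site, and windows of a gene with several start sites can overlap.

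LAMB3, the β chain of the anchoring laminin of epithelia, was the member that moved furthest, and it moved in opposite directions when MESH1 or ATF4 was silenced. Its signal, read by 1 probe set, was -1.52, -1.47 and -1.43 on the siMESH1 arrays, 0.90, 0.99 and 1.11 on the siATF4 arrays and 0.14, 0.14 and 0.02 on the siMESH1+siATF4 arrays, against -0.14, 0.13 and 0.01 on the siNT arrays. The siMESH1 arrays all lay below, and the siATF4 arrays all above, every other array, whereas the siMESH1+siATF4 arrays overlapped those of siNT. LAMB3 thus fell 2.78-fold in siMESH1 (-1.47 ± 0.075, SE, adjusted p = 1.2e-08) and rose 2.00-fold in siATF4 (1.00 ± 0.075, adjusted p = 5.8e-07). The study took genes changed by siATF4 alone to be off-target effects, given low ATF4 in unstressed RCC4 cells, and excluded them. LAMB3 was such a gene here, and whether its rise follows from loss of ATF4 was not tested. Between siMESH1 and siATF4 it differed 5.54-fold (-2.47, adjusted p = 8.9e-10).

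With ATF4 also silenced, LAMB3 was 2.97-fold higher than in siMESH1 (1.57 ± 0.075, adjusted p = 2.6e-08) and 1.86-fold lower than in siATF4 (-0.90 ± 0.075, adjusted p = 1.2e-05), and its difference from siNT was 0.10 (95% interval -0.06 to 0.26, adjusted p = 0.35). The siMESH1 difference was thus -0.90 in ATF4-silenced cells and -1.47 in cells with ATF4. The test of that difference, the interaction, gave 0.57 (95% interval 0.34 to 0.80, adjusted p = 0.0035), and LAMB3 was the only one of the 42 members called in it (3.46% of all genes were called higher in the interaction and 0.853% lower). Under centring on housekeeping genes the interaction was 0.318 (adjusted p = 0.022), below the fold minimum. The other 5 calls of LAMB3 kept their side of the threshold under every alternative, several of which could not move its difference.

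**Figure D1:**
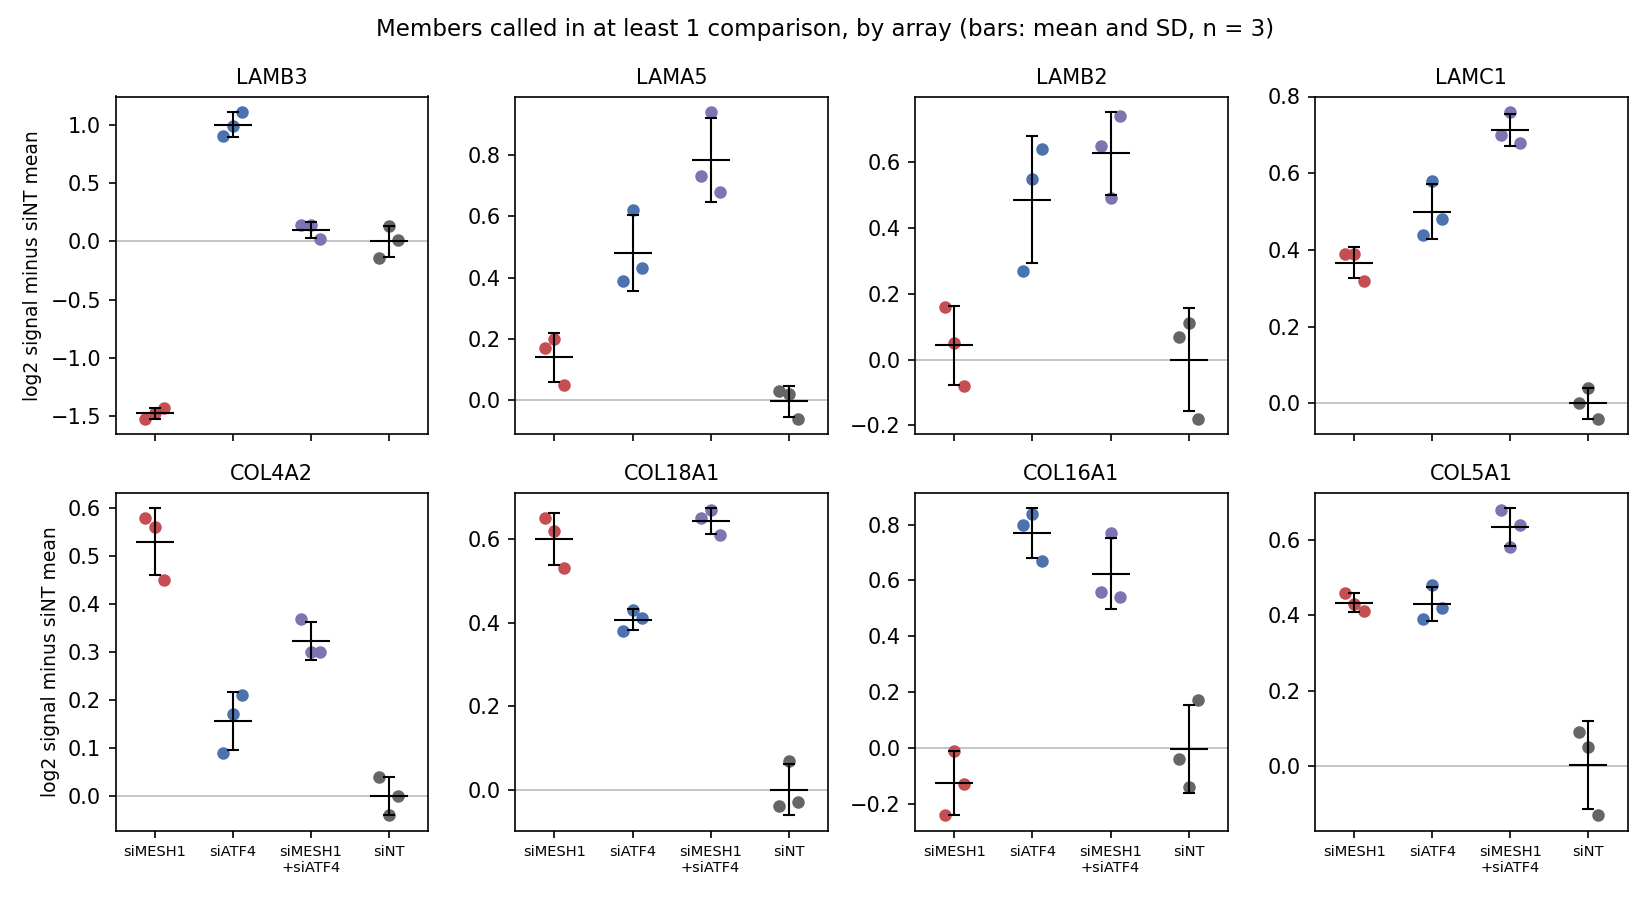
Log2 signal relative to the siNT mean of the 8 members called in at least 1 comparison, with a point for each array, a horizontal bar for the group mean and error bars for the SD (n = 3 arrays per group); vertical scales differ between panels. LAMB3 lies near -1.5 in siMESH1 and near 1 in siATF4, and the laminins LAMA5, LAMB2 and LAMC1 have their highest means in siMESH1+siATF4.

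In siMESH1 against siNT, 2 members rose (4.76%, against 2.82% of all genes) and 1, LAMB3, fell (2.38%, against 5.37%). The members that rose were COL18A1 and COL4A2. COL18A1, a heparan sulfate collagen of basement membranes whose end fragment is endostatin, was at 0.65, 0.62 and 0.53 on the siMESH1 arrays, against -0.04, 0.07 and -0.03 on the siNT arrays, a rise of 1.52-fold (0.60 ± 0.051, adjusted p = 1.3e-06). COL4A2 was at 0.58, 0.56 and 0.45 on the siMESH1 arrays, against 0.04, -0.04 and 0.00 on the siNT arrays, a rise of 1.44-fold (0.53 ± 0.053, adjusted p = 6.1e-06). In both genes the groups did not overlap, but neither did they in LAMA4 (0.08, adjusted p = 0.29), which was not called. COL4A1, its trimer partner across the shared promoter, was at 0.45, 0.41 and 0.34, against 0.00, 0.01 and -0.01, with a difference of 0.40 (adjusted p = 4.6e-05) that lay under the fold minimum.

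By adjusted p alone, 8 members were higher in siMESH1 (19.0%, against 17.3% of all genes) and 3 lower (7.14%, against 16.3%). The higher ones beside COL18A1 and COL4A2 were COL5A1 (0.44), COL4A1 (0.40), LAMC1 (0.37), COL4A5 (0.26), LAMB1 (0.26) and COL6A1 (0.20). The lower ones beside LAMB3 were COL6A3 (-0.47, adjusted p = 0.019) and COL7A1 (-0.20, adjusted p = 0.021). These differences are on the deposited scale. Centring each array on 11 housekeeping genes, whose mean was -0.331 in siMESH1 cells, -0.147 in siATF4 cells and -0.221 in siMESH1+siATF4, raised every gene by that amount: 9 members then rose (21.4%, against 21.1% of all genes) and LAMB3 alone fell (2.38%, against 2.43%) in siMESH1, and COL7A1 turned to 0.13. Of those 11 genes 3 were themselves called lower in siMESH1 (TFRC at -1.17, HPRT1 at -0.66 and PGK1 at -0.53). The median of all genes in siMESH1 was 0.028 on the deposited scale.

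**Figure D2:**
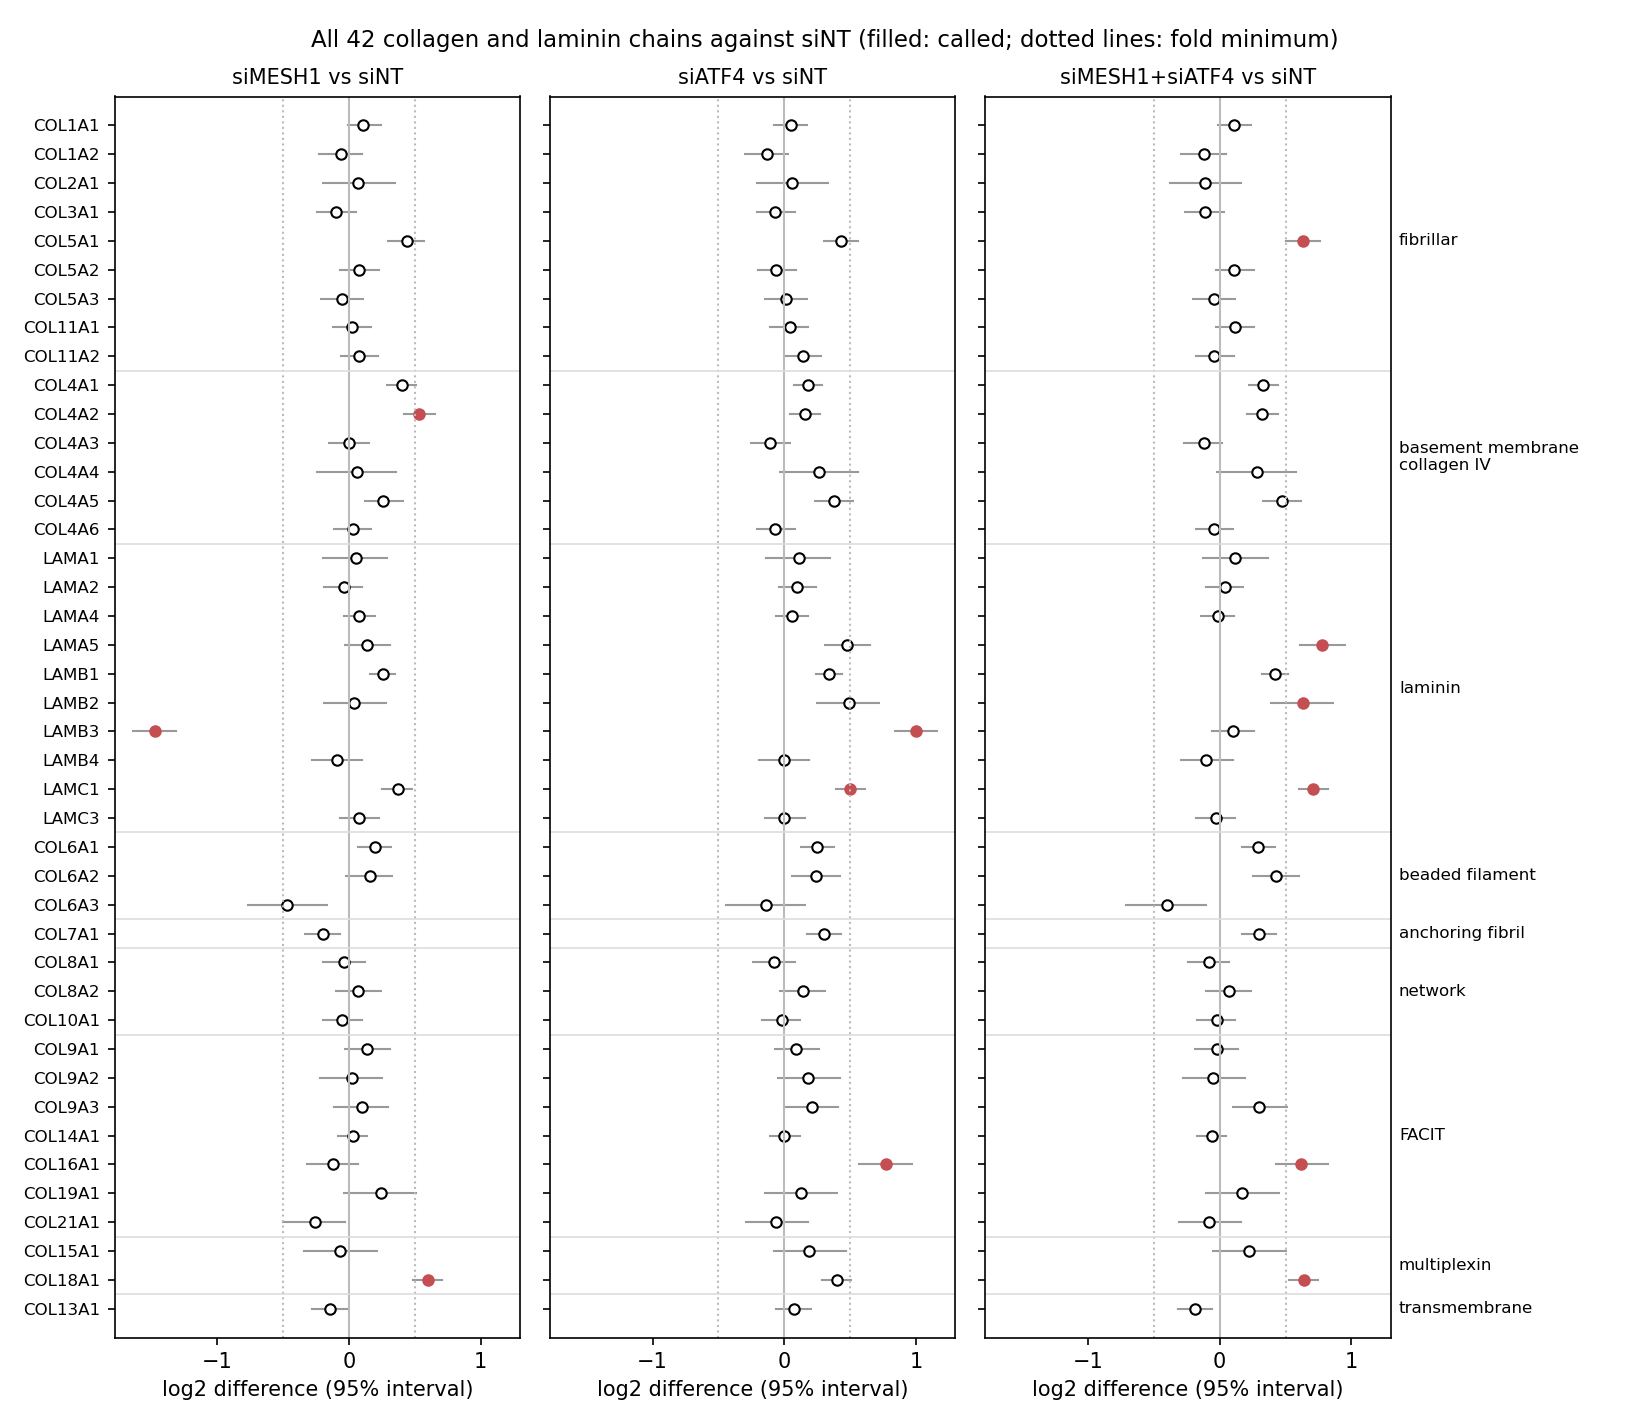
Log2 difference from siNT of all 42 members, grouped by class from top to bottom, in siMESH1, siATF4 and siMESH1+siATF4 (panels left to right); bars are 95% intervals of the fit, filled points are called and dotted lines mark a difference of 0.5 either way. LAMB3 is at -1.47 in siMESH1 and 1.00 in siATF4, and of the fibrillar chains COL5A1 stands apart at 0.44, 0.43 and 0.63.

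In siATF4 against siNT, 3 members rose (7.14%, against 2.49% of all genes) and 0 fell (against 4.03%), and they were LAMB3, COL16A1 and LAMC1. All 3 changed with siATF4 alone, the kind of gene that the study set aside as off-target. By adjusted p alone, 14 members were higher (33.3%, against 14.8%) and 0 lower (against 13.8%). COL16A1, a collagen that decorates fibrils and adhesion sites, was at 0.80, 0.84 and 0.67 on the siATF4 arrays, against -0.04, -0.14 and 0.17 on the siNT arrays, a rise of 1.71-fold (0.77 ± 0.091, adjusted p = 3.4e-05). LAMC1, the γ chain shared by most laminins, was at 0.44, 0.58 and 0.48 on the siATF4 arrays, against 0.00, 0.04 and -0.04 on the siNT arrays. Its difference of 0.50 (± 0.052, adjusted p = 1.1e-05) only reached the fold minimum, and it was 0.481 without siNT replicate 3, 0.46 without siATF4 replicate 2 and 0.481 with arrays centred on their medians. LAMB2 (0.49) and LAMA5 (0.48) lay just under the minimum and were called without siATF4 replicate 1, which took the count to 5.

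In siMESH1+siATF4 against siNT, 6 members rose (14.3%, against 4.4% of all genes) and 0 fell (against 5.25%). By adjusted p alone, 14 were higher (33.3%, against 19.5%) and 2, COL6A3 (-0.40) and COL13A1 (-0.19), lower (4.76%, against 16.0%). Among the 6 were the chains of the laminins that dominate adult kidney basement membranes. LAMA5, their α chain, was at 0.73, 0.94 and 0.68 on the siMESH1+siATF4 arrays, against 0.03, 0.02 and -0.06 on the siNT arrays, a rise of 1.72-fold (0.78 ± 0.078, adjusted p = 4.9e-06). LAMC1 was at 0.70, 0.76 and 0.68, against the siNT values above, a rise of 1.64-fold (0.71 ± 0.052, adjusted p = 2.9e-07). LAMB2, the β chain of the glomerular laminin, was at 0.65, 0.49 and 0.74, against 0.07, 0.11 and -0.18, a rise of 1.54-fold (0.63 ± 0.11, adjusted p = 5e-04). No array of these groups overlapped in any of the 3 chains, nor in COL15A1 (0.22, adjusted p = 0.21), which was not called. The 3 chains had been picked by their call, so this adds nothing to it. LAMB1, the alternative β chain, had 0.40, 0.42 and 0.44, against 0.02, -0.03 and 0.02, and its difference of 0.42 (adjusted p = 7.8e-06) stayed under the minimum.

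The other 3 that rose in siMESH1+siATF4 were collagens. COL18A1 was at 0.65, 0.67 and 0.61 (0.64 ± 0.051, adjusted p = 5.4e-07), with 0.38, 0.43 and 0.41 on the siATF4 arrays, and COL16A1 at 0.56, 0.77 and 0.54 (0.62 ± 0.091, adjusted p = 1.3e-04), against the siNT values above. COL5A1, a chain of the collagen that seeds and limits the width of collagen I fibrils, was at 0.68, 0.58 and 0.64 in siMESH1+siATF4, against 0.09, 0.05 and -0.13 in siNT, a rise of 1.55-fold (0.63 ± 0.061, adjusted p = 3.4e-06). In the single silencings it was at 0.46, 0.43 and 0.41 in siMESH1 and 0.39, 0.48 and 0.42 in siATF4, all above siNT, with differences of 0.44 and 0.43 under the minimum. The comparisons with siNT share their siNT arrays. Without probe sets of the _s_at and _x_at kinds, whose probes can match several transcripts, 3 of the 6 were called (COL16A1, COL5A1 and LAMC1). LAMA5, LAMB2 and COL18A1 are read only by _s_at probe sets and gave no value there.

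Against siMESH1, siMESH1+siATF4 had 4 members higher (9.52%, against 3.42% of all genes) and 0 lower (against 2.68%). Besides LAMB3 these were COL16A1 (0.75 ± 0.091, adjusted p = 4.8e-05), LAMA5 (0.64 ± 0.078, adjusted p = 4.9e-05) and LAMB2 (0.58 ± 0.11, adjusted p = 0.0012). In siMESH1, COL16A1 was at -0.24, -0.01 and -0.13, LAMA5 at 0.17, 0.20 and 0.05 and LAMB2 at 0.16, 0.05 and -0.08. None of these 3 genes passed the adjusted p in siMESH1 against siNT (0.34, 0.20 and 0.82). With siATF4 alone they differed from siNT by 0.77, 0.48 and 0.49. Their interactions were -0.02, 0.16 and 0.10 (adjusted p = 0.95, 0.41 and 0.76), so a dependence of the siMESH1 response on ATF4 was not shown for them. LAMB2 was at 0.475 in siMESH1+siATF4 against siMESH1 under housekeeping centring, under the minimum. COL7A1, which forms the anchoring fibrils that tie to the LAMB3 laminin in skin, was at 0.28, 0.22 and 0.40 in siMESH1+siATF4 and -0.24, -0.20 and -0.15 in siMESH1, and its difference of 0.497 fell just short.

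Against siATF4, siMESH1+siATF4 had 1 member lower, LAMB3 (2.38%, against 1.28% of all genes), and 0 higher (against 0.351%). Between siMESH1 and siATF4, 0 members were higher (against 3.91% of all genes) and 2 lower in siMESH1 (4.76%, against 4.75%), LAMB3 and COL16A1 (-0.89 ± 0.091, adjusted p = 7e-06), and without siATF4 replicate 1 the count was 4, with COL7A1 and LAMB2. For the collagen IV pair the order was the reverse, with COL4A2 at 0.58, 0.56 and 0.45 in siMESH1 and 0.09, 0.17 and 0.21 in siATF4 (0.37, adjusted p = 1.2e-04, under the minimum). COL4A2 (-0.36, adjusted p = 0.0075), COL18A1 (-0.36, adjusted p = 0.0058) and COL4A1 (-0.24, adjusted p = 0.045) had interactions of the opposite sign to that of LAMB3, under the minimum on the deposited scale. With housekeeping centring, which lowers every interaction alike, those of COL4A2 and COL18A1 were both -0.62 and called. So were those of COL11A2 and COL9A1 (both -0.51) and of COL2A1 and COL9A2 (both -0.50). In all, 14.3% of members were then called lower in the interaction, against 10.5% of all genes.

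On the deposited scale, 8 of the 9 fibrillar chains lay within -0.13 and 0.14 of siNT in all 3 comparisons, with COL5A1 the exception, and the basement membrane chains were spread more widely. The median difference of the 9 fibrillar chains was 0.0739 in siMESH1 cells, 0.0351 in siATF4 cells and -0.0352 in siMESH1+siATF4. That of the 16 basement membrane chains was 0.0681 in siMESH1 cells, 0.166 in siATF4 cells and 0.20 in siMESH1+siATF4, beside 0.028, 0.0204 and 0.013 over all genes. The gap between the classes, basement membrane minus fibrillar, was -0.006 in siMESH1 cells, 0.131 in siATF4 cells and 0.235 in siMESH1+siATF4. Taken between the class medians of each single array, a gap varied between replicates with an SD of 0.0573, pooled over all groups. Centring the arrays moves both classes alike and leaves the gap as it is. Without the _s_at and _x_at probe sets the gap in siMESH1+siATF4 was 0.087, and in siATF4 it ranged from 0.075 to 0.193 with 1 array left out. Chains of a class share trimers and arrays and are no replicates, so the gap carries no test.

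By adjusted p alone, 1 of 9 fibrillar chains (COL5A1) differed from siNT in each of the 3 silenced groups on the deposited scale. With housekeeping centring all 9 did in siMESH1, each higher (0.23 to 0.77), as did 86.0% of all genes. In siATF4 4 of 9 then did (44.4%, against 51.2% of all genes) and in siMESH1+siATF4 5 of 9 (55.6%, against 66.8%). On the deposited scale, 6 of 16 basement membrane chains did in siMESH1 (37.5%, against 33.6% of all genes), 8 of 16 in siATF4 (against 28.6%) and 7 of 16 in siMESH1+siATF4 (43.8%, against 35.6%). Those of siATF4 and siMESH1+siATF4 were all higher, and LAMB3 was the only one lower in siMESH1. With housekeeping centring 16 of 16 did in siMESH1 (LAMB3 lower, the others higher), 11 in siATF4 (68.8%) and 14 in siMESH1+siATF4 (87.5%). The mean of the laminins on each array was -0.0255, -0.0291 and -0.124 in siMESH1, 0.235, 0.383 and 0.304 in siATF4 and 0.245, 0.334 and 0.218 in siMESH1+siATF4, against -0.00806, 0.0213 and -0.0132 in siNT. The siMESH1 mean carries the fall of LAMB3 and the siATF4 mean carries its rise. The mean of collagen IV was 0.189, 0.236 and 0.216 in siMESH1, 0.134, 0.0787 and 0.188 in siATF4 and 0.17, 0.239 and 0.213 in siMESH1+siATF4, against -0.0173, -0.0197 and 0.037 in siNT. The fibrillar mean lay between 0.0444 and 0.0891 on all 9 silenced arrays, against 0.0408, -0.086 and 0.0452 in siNT. The siMESH1+siATF4 arrays overlapped those of siNT, and the siMESH1 and siATF4 arrays lay above the highest siNT array by less than the siNT SD of 0.0745. The 3′ minus 5′ signal of the ACTB control probe sets, a measure of RNA integrity, averaged -0.11 (SD 0.149) on the siMESH1 arrays, -0.29 (SD 0.0819) on the siATF4 arrays and -0.30 (SD 0.133) on the siMESH1+siATF4 arrays, against 0 (SD 0.0625) in siNT. That of GAPDH averaged 0.08 (SD 0.122), -0.09 (SD 0.0907) and -0.02 (SD 0.0845) in the same order, against 0 (SD 0.0213) in siNT. The part of RNA integrity in the result was not tested.

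**Figure D3:**
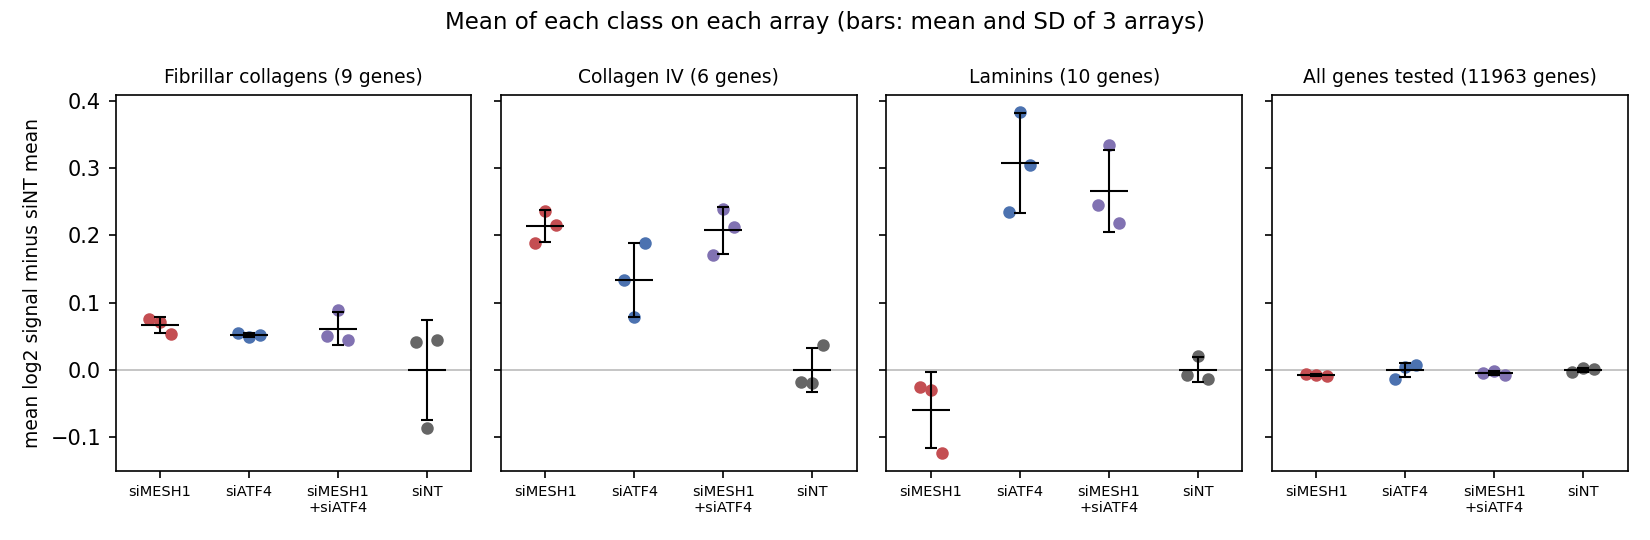
Mean log2 signal relative to siNT of the fibrillar collagens, the collagen IV chains, the laminins and all genes tested on each array (points), with the mean and SD of the 3 arrays of a group (bars). Laminin means, which include LAMB3 at 0.90 to 1.11 on the siATF4 arrays, are above 0.2 on all siATF4 and siMESH1+siATF4 arrays. Fibrillar means lie between 0.0444 and 0.0891 on all silenced arrays, close to the highest siNT array at 0.0452.

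Within the fibrillar class, collagen I and III, the bulk of stromal fibrils, had small values. COL1A1 was at 0.11, 0.14 and 0.09 in siMESH1, 0.04, 0.07 and 0.02 in siATF4 and 0.15, 0.12 and 0.08 in siMESH1+siATF4, against -0.04, -0.09 and 0.13 in siNT. Its partner COL1A2 had differences of -0.06, -0.13 and -0.12 in siMESH1, siATF4 and siMESH1+siATF4, and COL3A1 had -0.10, -0.07 and -0.11. None of these passed the adjusted p on the deposited scale. With housekeeping centring they all did in siMESH1, where COL1A1 had 0.45 (adjusted p = 3.6e-05), COL1A2 0.27 (adjusted p = 0.0077) and COL3A1 0.23 (adjusted p = 0.011), so that COL1A2 and COL3A1 turned sign. Both also turned sign in siATF4 (0.01 and 0.08) and siMESH1+siATF4 (0.10 and 0.11), without passing the adjusted p. COL1A1 did pass it in siATF4 (0.19, adjusted p = 0.02) and siMESH1+siATF4 (0.33, adjusted p = 4.5e-04) under that centring. The 95% intervals of the COL1A1 differences reached from -0.01 to 0.24 in siMESH1 and from -0.08 to 0.17 in siATF4. The remaining fibrillar chains (COL2A1, COL5A2, COL5A3, COL11A1 and COL11A2) lay between -0.11 and 0.14 in the 3 comparisons. COL5A2, the partner of COL5A1 in the usual collagen V trimer, had 0.08, -0.06 and 0.11 where COL5A1 had 0.44, 0.43 and 0.63.

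Of the minor collagen IV chains, COL4A5 alone passed the adjusted p on the deposited scale. COL4A5, a chain of the glomerular collagen IV network, was at 0.16, 0.42 and 0.21 in siMESH1, 0.30, 0.42 and 0.41 in siATF4 and 0.41, 0.53 and 0.48 in siMESH1+siATF4, against 0.04, -0.03 and 0.00 in siNT. All 9 silenced arrays lay above siNT, and the differences of 0.26, 0.38 and 0.47 (adjusted p = 0.0081, 9e-04 and 1e-04) were under the minimum. COL4A6, its head-to-head neighbour on the X chromosome with 379 bases between the start sites, had 0.03, -0.07 and -0.04. COL4A3 and COL4A4, 418 bases apart on chromosome 2, had 0.00, -0.11 and -0.12, and 0.06, 0.26 and 0.28, and did not pass the adjusted p. With housekeeping centring COL4A3 (0.33), COL4A4 (0.39) and COL4A6 (0.36) passed it in siMESH1, as did 86.0% of all genes. COL4A4 (0.41) then also passed it in siATF4, as did 51.2% of all genes. COL4A4 (0.50) and COL4A6 (0.18) passed it in siMESH1+siATF4, as did 66.8% of all genes. COL4A5 was then called in siMESH1 (0.59), siATF4 (0.53) and siMESH1+siATF4 (0.69). COL4A1 and COL4A2 themselves were at 0.40 and 0.53 in siMESH1 cells, 0.18 and 0.16 in siATF4 cells and 0.33 and 0.32 in siMESH1+siATF4.

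The laminins that were not called divided into LAMB1 and the chains near siNT. LAMB1 was above siNT on all 9 silenced arrays, with differences of 0.26, 0.34 and 0.42 in siMESH1, siATF4 and siMESH1+siATF4. LAMA4, the α chain of vessel walls, had 0.08, 0.06 and -0.01. LAMA1, LAMA2, LAMC3 and LAMB4 lay between -0.10 and 0.12 in the same comparisons, and none passed the adjusted p on the deposited scale. With housekeeping centring each did in siMESH1 (0.38, 0.29, 0.41 and 0.24), as did LAMA4 (0.41) and 86.0% of all genes. LAMA2 (0.25) and LAMA4 (0.21) then also did in siATF4, and LAMA1 (0.34), LAMA2 (0.26), LAMA4 (0.21) and LAMC3 (0.19) in siMESH1+siATF4. LAMA5, LAMB1 and LAMC1 assemble into 1 laminin, and in siMESH1+siATF4 they were at 0.78, 0.42 and 0.71.

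Collagen VI, a trimer of beaded filaments around cells, gave unequal values for its chains. COL6A1 had differences of 0.20, 0.25 and 0.29 and COL6A2 of 0.16, 0.24 and 0.43 in siMESH1, siATF4 and siMESH1+siATF4. COL6A3 was at -0.36, -0.54 and -0.50 in siMESH1, -0.43, 0.15 and -0.14 in siATF4 and -0.21, -0.62 and -0.39 in siMESH1+siATF4, against -0.09, 0.19 and -0.10 in siNT, and had the widest spread of all members (SD 0.202). Its values became -0.14, 0.01 and -0.18 under housekeeping centring, and none then passed the adjusted p. The network collagens (COL8A1, COL8A2 and COL10A1) lay between -0.08 and 0.14, and the fibril-associated collagens other than COL16A1 between -0.26 and 0.30, with COL9A3 at 0.30 in siMESH1+siATF4 (adjusted p = 0.024). COL15A1, the relative of COL18A1, had -0.07, 0.19 and 0.22, and the membrane collagen COL13A1 had -0.14, 0.07 and -0.19.

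Probe sets of a gene did not always give the same size of difference. In COL6A1, read by 8 probe sets, values in siMESH1 ran from -0.10 to 0.68, and 1 probe set was called there and in siMESH1+siATF4 (0.70) while the gene was not. In COL4A2 the probe sets gave 0.67 and 0.39 in siMESH1, and in COL4A1 they gave 0.52 and 0.28. In COL5A1 the 3 probe sets gave 0.84, 0.69 and 0.36 in siMESH1+siATF4, and in LAMC1 they gave 0.89 and 0.53. In COL1A1, 1 of 4 reached 0.50 in siMESH1+siATF4 while the others lay between -0.10 and 0.12. Counted by any probe set, 6 members were called in siMESH1 against siNT. Genes with more probe sets have more ways to be called under that rule, and no share over all genes is given for it.

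**Figure D4:**
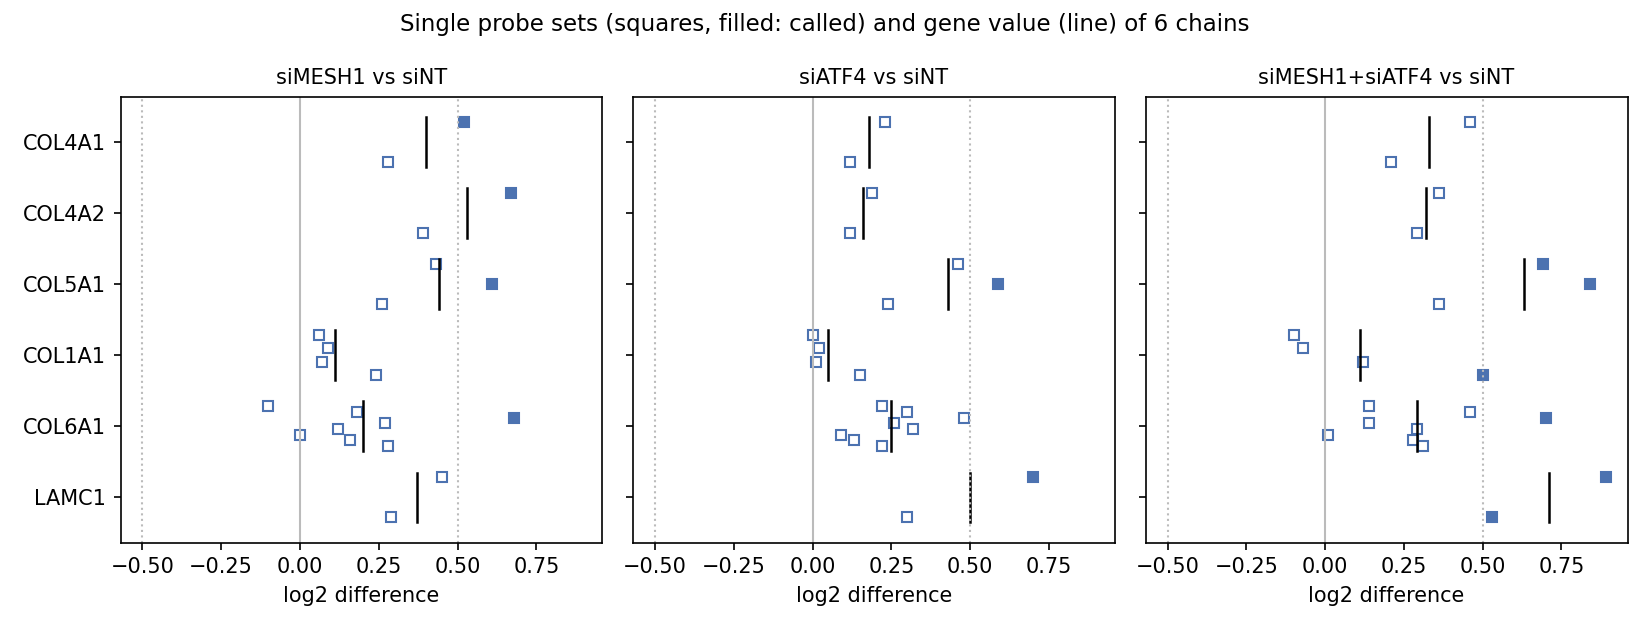
Log2 difference from siNT of each probe set (squares, filled where called) and of the gene value (black line) for 6 chains in siMESH1, siATF4 and siMESH1+siATF4; dotted lines mark 0.5 either way. The 8 probe sets of COL6A1 spread from -0.10 to 0.68 in siMESH1, whereas the probe sets of COL4A1 and COL4A2 lie on the same side of 0 throughout.

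The proteins that modify, link and bind these chains were taken from lists of genes with known roles. Of all genes, 2.82% were called higher and 5.37% lower in siMESH1 against siNT. These shares were 2.49% and 4.03% in siATF4, and 4.4% and 5.25% in siMESH1+siATF4. Of 19 measured genes of collagen modification, folding and export, 0 were called in any comparison with siNT. SERPINH1, the collagen chaperone, had -0.03 in siMESH1 cells, 0.36 in siATF4 cells and 0.38 in siMESH1+siATF4. P4HA2, a prolyl hydroxylase, had -0.23, 0.38 and 0.38, so that P4HA2 was 0.61 higher in siMESH1+siATF4 than in siMESH1 (adjusted p = 3e-06). Both were chosen after their values were seen. The medians of the 19 genes were -0.01, 0.10 and 0.13 in siMESH1, siATF4 and siMESH1+siATF4. Their ranges were -0.23 to 0.38, -0.23 to 0.38 and -0.45 to 0.38. Between siMESH1 and siATF4, 1 of the 19 was called higher in siMESH1 (highest value 0.53) and 1 lower (lowest value -0.61). Of 12 genes of procollagen cleavage and cross-linking, 0 rose and 2 fell in siMESH1, the transglutaminase TGM2 (-0.67) and the lysyl oxidase LOX (-0.50). In siATF4 2 rose, PXDN (0.54), the peroxidase that cross-links collagen IV, and the protease TLL2 (0.59). In siMESH1+siATF4 2 rose, TLL2 (0.88) and LOXL1 (0.62). PXDN had -0.34 in siMESH1 and was 0.77 higher in siMESH1+siATF4 than in siMESH1 (adjusted p = 2.1e-07). The median over these 12 genes was 0.05, 0.19 and 0.20.

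Of 10 measured basement membrane partners, FN1, the fibronectin gene, rose in siMESH1 (0.72), siATF4 (0.75) and siMESH1+siATF4 (1.04). SPARC, a collagen-binding glycoprotein, rose in siATF4 (2.39 ± 0.11, adjusted p = 1.5e-08) and siMESH1+siATF4 (2.86 ± 0.11, adjusted p = 8.4e-10) and had 0.27 in siMESH1. NID1, which links laminin to collagen IV, fell in siMESH1 (-0.73). Of 13 measured receptors, 1 rose and 3 fell in siMESH1, and 3 rose and 0 fell in both siATF4 and siMESH1+siATF4, beside the shares of all genes given above. ITGA1, the α chain of a collagen IV integrin, rose in siMESH1 (1.03), siATF4 (0.67) and siMESH1+siATF4 (0.90), with an interaction of -0.80 (adjusted p = 5.3e-05). ITGA6, the α chain of the laminin integrins, fell in siMESH1 (-0.62), as did CD44 (-0.63) and the syndecan SDC1 (-0.55). SDC4, another syndecan, and BCAM, a receptor for LAMA5, rose in siATF4 (0.72 and 0.52) and siMESH1+siATF4 (0.93 and 0.68). Of 13 fibril-associated proteoglycans and glycoproteins, 0 were called in the comparisons with siNT, with a range of -0.18 to 0.29. The falls named here in siMESH1 kept their sign but not their call under housekeeping centring (NID1 -0.40, CD44 -0.30, ITGA6 -0.29, SDC1 -0.22, LOX -0.17 and TGM2 -0.34), and the rise of BCAM in siATF4 lost its call with arrays centred on their medians.

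Among 7 measured markers of renal epithelium and clear cell carcinoma, the keratins KRT18 and KRT19 were the ones called against siNT. KRT18 fell in siMESH1 (-0.54), had 0.49 in siATF4 and rose in siMESH1+siATF4 (0.63), and it was the only marker called in siMESH1 against siNT. Under housekeeping centring its fall in siMESH1 was -0.21 and not called, while its rise in siMESH1+siATF4 kept its call. KRT19 rose in siATF4 (0.75) and siMESH1+siATF4 (1.13) and had -0.15 in siMESH1. The 7 markers ranged from -0.54 to 0.45 in siMESH1 cells, 0.10 to 0.75 in siATF4 cells and 0.16 to 1.13 in siMESH1+siATF4. Their part in the LAMB3 result was not tested.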

How the data were processed

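Total RNA of 12 cultures was hybridised to Affymetrix human arrays, and the authors deposited log2 signals normalized by RMA in the Affymetrix Expression Console software, less the siNT mean of each probe set. That mean was checked and lay within 0.00012 of 0. The software versions were not stated. Of 22277 probe sets, 62 were controls, and 19064 had exactly 1 symbol. Their mean per gene gave 11963 genes, and 27 of the 42 members had several probe sets. With differences and no levels, no filter on low values could be set, so all 42 members entered the tests. 0 columns were left without a sample. The 3 arrays of each group limit the precision, and p-values measure only the spread between these samples.

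Each gene was tested with limma 3.58.1 (lmFit, then eBayes, R 4.3.3), with all 12 arrays in a single fit, a mean per group and no block (8 residual and 4.32 prior degrees of freedom). The interaction is the effect of siMESH1 in ATF4-silenced cells minus its effect in cells with ATF4. The procedure was tested on simulated data. The study's fold minimum was kept, and limma replaced its t-test, which was run as an alternative. Other alternatives changed the centring, the probe set rule, the groups in the fit, the fold minimum and the replicates used. The members, classes and gene lists were chosen with earlier results of these data known. Named in the text are all members called at least once, their trimer or promoter partners, the other members in groups, and up to 4 called genes of each list per comparison with siNT, together with SERPINH1 and P4HA2, which were chosen after their values were seen. Promoter letters are RefSeq's, from tables of GRCh38.p14, and start 250 bases before each start site. Python 3.11.15 with pandas 2.3.3, numpy 2.4.6 and matplotlib 3.10.9 prepared tables and figures.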

Additional observations from a re-analysis of the deposited data

Results flagged for a closer look

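LAMB3 was taken up for a closer look because its response to siMESH1 differed with and without ATF4. The siMESH1 difference was -0.90 in ATF4-silenced cells and -1.47 in cells with ATF4, and the test of that difference gave 0.57 (SE 0.11, adjusted p = 0.0035 by limma). It kept its sign and its call under 16 of 17 alternatives, over which it ranged from 0.318 to 0.647. Not all of these could move it. LAMB3 is read by 1 probe set, so the probe set rules left its difference as it was, and so did the replicate block.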

How the results depend on the processing

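Of 20 gene-level calls, 17 kept their direction and their side of the threshold under every alternative that gave them a value. Over all alternatives 386 values kept both, 5 fell under the threshold and 0 reversed. Where the array left out belonged to a group outside the comparison, the difference could not move, only its p-value. The same held for the replicate block, the fit to only the groups compared and the t-tests. It also held for the probe set rules in members read by 1 probe set. Such values are among the 386. The exceptions were LAMC1 in siATF4 against siNT, LAMB2 in siMESH1+siATF4 against siMESH1 (0.475) and LAMB3 in the interaction (0.318), the last pair under housekeeping centring.

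Housekeeping centring, which adds the same amount to every gene of an array, gave 10 members called in siMESH1 against siNT (9 higher and 1 lower, against 2 and 1), 8 in siATF4 against siNT, 14 in siMESH1+siATF4 against siNT and 6 in the interaction (all lower, against 1 higher). Over all genes it gave 2817 calls in siMESH1 (2526 higher and 291 lower, against 980 with 337 and 643), 1877 in siMESH1+siATF4 (1505 and 372, against 1154 with 526 and 628) and 1457 in the interaction (196 and 1261, against 516 with 414 and 102). In siATF4 it called 681 of all genes higher and 324 lower (against 298 and 482). These were 5.69% and 2.71% of all genes, beside 19.0% and 0% of the members. Without the fold minimum the members called were 11 in siMESH1 cells, 14 in siATF4 cells and 16 in siMESH1+siATF4 against siNT, 11 in siMESH1+siATF4 against siMESH1, 5 against siATF4, 9 in siMESH1 against siATF4 and 4 in the interaction, and over all genes 4019, 3421, 4254, 3348, 1403, 4004 and 1424 were called, against 980, 780, 1154, 730, 195, 1036 and 516. Counted by any probe set, 6 members were called in siMESH1 against siNT and 2 in the interaction, counts given without a share over all genes. Without _s_at and _x_at probe sets 3 were called in siMESH1+siATF4 against siNT, and the gap between basement membrane and fibrillar medians was 0.087 there and -0.026 in siMESH1 against siATF4, where it was -0.09 with all probe sets. The methods' t-test after adjustment called 122 of all genes in siMESH1+siATF4 against siATF4, against 195.

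Leaving out 1 array in turn gave 3 to 4 members in siMESH1 against siNT, 2 to 5 in siATF4 against siNT, 6 to 8 in siMESH1+siATF4 against siNT, 4 to 5 in siMESH1+siATF4 against siMESH1, 1 against siATF4, 2 to 4 in siMESH1 against siATF4 and 1 in the interaction. Without siATF4 replicate 1 the counts were 5 in siATF4 against siNT and 4 in siMESH1 against siATF4. The gap ranged from -0.006 to 0.112 in siMESH1 cells, 0.075 to 0.193 in siATF4 cells and 0.171 to 0.285 in siMESH1+siATF4 against siNT, 0.018 to 0.139 in siMESH1+siATF4 against siMESH1, -0.003 to 0.072 against siATF4, -0.118 to -0.076 in siMESH1 against siATF4 and -0.123 to 0.01 in the interaction. The gap in siMESH1 was 0.112 without siNT replicate 2 and 0.075 without siMESH1 replicate 1.

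Same-numbered arrays of different groups deviated from their group means with correlations of -0.19 to 0.1 over 18 pairs, so the numbers were not taken to pair the samples. With the replicate block the members called were 3, 3 and 6 against siNT, 4, 1 and 2 in the other pairs of groups and 1 in the interaction, the same counts as without it.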
